A study of Mus musculus with 4 samples.

Results

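The transcription factors that direct immature T cells towards the CD4 or the CD8 fate were described in mouse cells labelled as regulatory T cells. The set holds 10 genes of the 50600 in the count tables, chosen by name and not by their values: Runx1, Runx2, Runx3, their partner Cbfb, Zbtb7b, Gata3, Tox, Myb, Satb1 and Bcl11b. RNA was measured in 4 libraries of primary cells from the C57BL/6NJ strain, which form 1 group of biological replicates 1 to 4. The labels give a biosample for each library and 1 donor record for all of them, and neither sex nor age is known. They call the assay total RNA-seq but cite a library protocol for poly(A)+ RNA and a protocol for CD4 T cell differentiation, and the column names in the files carry the words Treg, activated and 00h. There is no other group, so genes were compared within each library. The exact p given with a ratio of factors refers to the mean of that ratio over these 4 libraries, not to differences among them. The p of the test for variation between libraries refers to differences among these 4 libraries alone, some of which may be technical.

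Immature thymocytes carry both coreceptors, CD4 and CD8, and keep one of them as they mature. ThPOK, the product of Zbtb7b, commits cells to the CD4 fate and holds Runx3 down, while Runx3 silences Cd4 in the CD8 lineage and holds Zbtb7b down. Gata3, Tox and Myb act before ThPOK on the way to the CD4 fate, and Satb1 and Bcl11b organise chromatin and T cell identity around both loci. Regulatory T cells are CD4 T cells, and in them the Runx proteins with their partner bind and sustain Foxp3, the factor that defines the lineage.

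Of the 10 factors, 9 reached 1 TPM, a length-normalised abundance, in all 4 libraries, against 9948 of 21764 protein-coding genes (45.7%). The same 9 also reached 5 TPM in all 4. The median of the 10 factors was 71.2 ± 3.59 TPM and that of all protein-coding genes 0.387 ± 0.0236 TPM (SD, n = 4). Together the factors took 0.247% ± 0.00700 of all counts. Replicates 1 to 4 held 25573253, 62090744, 23000465 and 61943411 counts, and no pair of libraries agreed within sampling noise.

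The cell type label was checked against its markers. Cd4, the coreceptor gene of the lineage, lay at 1067 ± 31.4 TPM. Foxp3 lay at 8.28 ± 0.867 TPM, at percentile 62.3 of protein-coding genes. Of the regulatory T cell list, 11 of 14 genes (78.6%) passed 1 TPM in every library, beside 45.7% of all protein-coding genes. The list had a median level of 8.20 ± 0.955 TPM, and Izumo1r, Tnfrsf18 and Capg were its highest genes. The regulatory T cell marker Il2ra, named after its values were seen, varied between libraries (edgeR test for variation, adjusted p 1.2e-07). Its log2 CPM, from counts scaled to library size, was 3.35, 2.55, 3.92 and 2.39 in replicates 1 to 4. The markers Ikzf4, Ctla4 and Ikzf2, also named after their values were seen, had a mean log2 CPM of 3.24, 2.38 and 2.16. On this scale Foxp3 was at 3.24 and Tnfrsf18 at 5.55. Whether the libraries held the same mix of cells was not tested. Of the naive T cell list all 11 passed, beside the same 45.7% of all protein-coding genes. Its median level was 645 ± 41.9 TPM, and Tcf7, Ccr7 and Il7r were highest. The markers thus go against the label in part: Cd4 and Foxp3 are present, but the naive T cell genes stand far above the regulatory T cell genes, and the libraries are referred to only as labelled regulatory T cell. In bulk RNA, fewer cells of a type and less RNA per cell cannot be told apart.

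The 10 factors spanned from over 200 TPM to well below 1. Zbtb7b (248.7 ± 19.6 TPM) and Bcl11b (239.6 ± 17.4 TPM) were highest, followed by Satb1 (179.6 ± 8.03 TPM), Cbfb (142 ± 6.25 TPM) and Runx3 (88.8 ± 4.43 TPM). Gata3 (53.6 ± 3.40 TPM), Runx1 (34.99 ± 0.797 TPM), Tox (28.1 ± 1.46 TPM) and Myb (12.1 ± 1.16 TPM) came next, and Runx2 (0.229 ± 0.0657 TPM) was last. Ranked in each library, 8 of the 10 kept 1 place in all 4, and Zbtb7b and Bcl11b exchanged the first place in replicate 3.

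**Figure D1:**
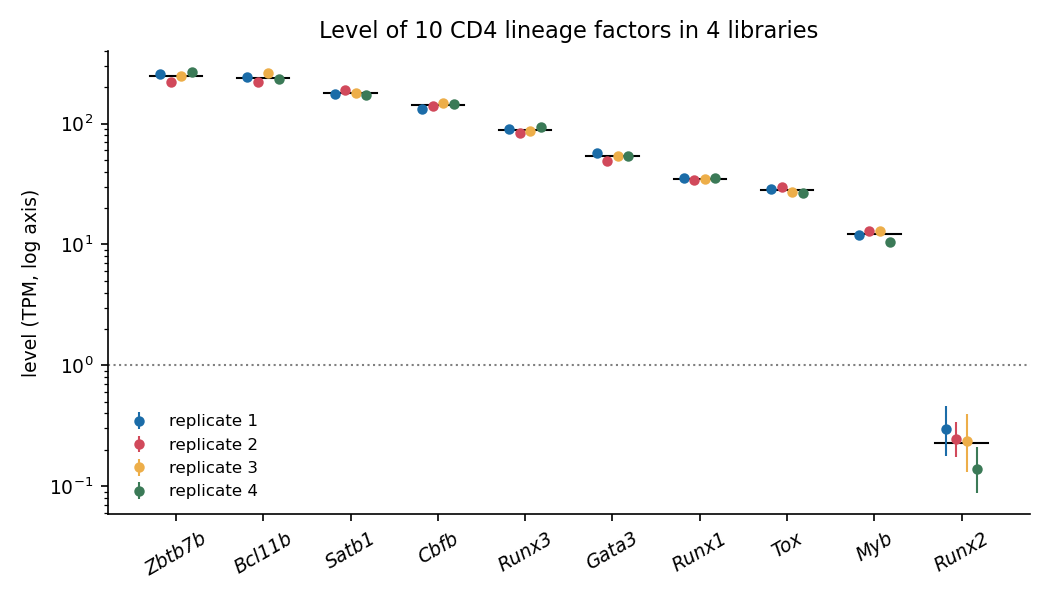
Level in TPM (log axis) of each of the 10 factors in replicates 1 to 4, with a bar at the mean and, as vertical lines, the exact 95% Poisson interval of each count. The dotted line marks 1 TPM, and Runx2 lies below it in all 4 libraries while the other 9 lie above 10 TPM.

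Neighbours in this order were compared by the log2 difference of their levels (TPM plus 0.1) within each library. Zbtb7b over Bcl11b was 0.05 ± 0.10, higher in 3 of 4 libraries, so these neighbours did not differ beyond their spread. The other 8 pairs of neighbours kept 1 sign in 4 of 4 libraries. Bcl11b stood 0.41 ± 0.14 over Satb1, Satb1 0.34 ± 0.09 over Cbfb, and Cbfb 0.67 ± 0.10 over Runx3. Runx3 stood 0.73 ± 0.07 over Gata3, Gata3 0.61 ± 0.07 over Runx1, and Runx1 0.32 ± 0.10 over Tox. The widest steps came at the end, with Tox 1.21 ± 0.12 over Myb and Myb 5.23 ± 0.22 over Runx2. These steps rest on the exon length in the files, which joins the exons of all transcripts of a gene and for Satb1 is 3.05 times its longest annotated transcript.

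The order depended on that length. Divided by the longest annotated transcript in place of the joined exons, Satb1 was first at 435 ± 19.4 TPM, followed by Zbtb7b at 255 TPM and Bcl11b at 190.5 TPM, and Runx1 at 56.2 TPM passed Gata3 at 52.7 TPM. Cbfb, Runx3, Tox, Myb and Runx2 kept their places, so 5 of 10 did. The joined exons were 2.42 times the longest transcript for Myb, 2.02 times for Runx1 and 1.92 times for Tox, and 1.00 to 1.37 times for the other 6. As CPM, counts scaled to library size without any length, 5 of 10 kept their places as well. Which transcripts these cells use was not measured, so the levels of Satb1, Runx1, Tox and Myb relative to the rest are known only within these factors.

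**Figure D2:**
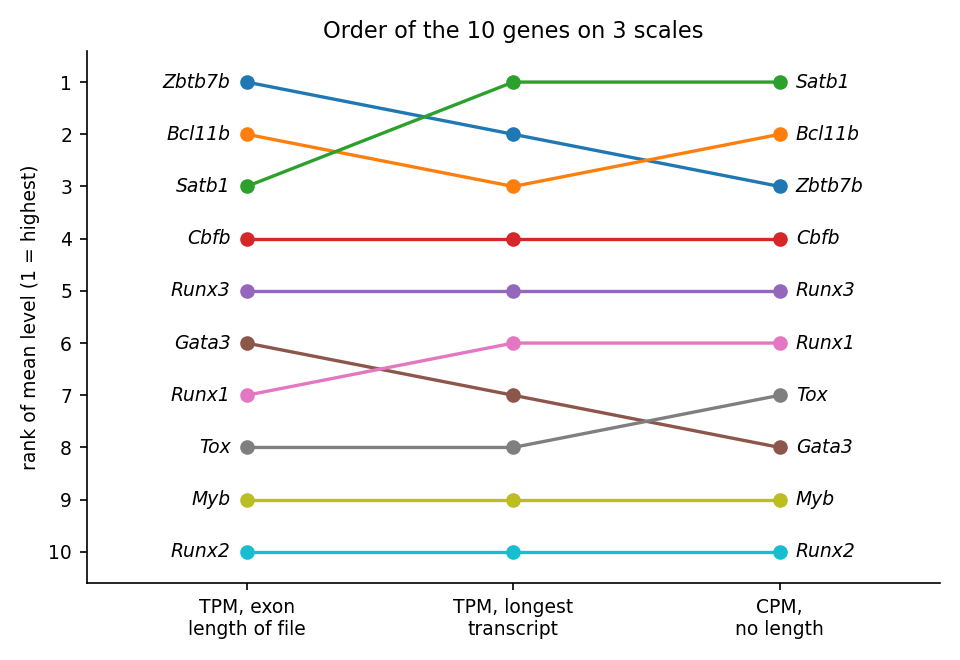
Rank of the mean level of each factor (1 is highest) on 3 scales: TPM with the exon length of the files, TPM with the longest annotated transcript, and CPM without length. Satb1 moves to rank 1 and Gata3 falls below Runx1 once the exon length is replaced, while Cbfb, Runx3, Myb and Runx2 hold ranks 4, 5, 9 and 10 on all 3.

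The Runx genes encode the DNA-binding subunits of core-binding factor and Runx3 was the highest of them on every scale tried, by an amount that depends on the gene length used. Runx3 (ENSMUSG00000070691.10, chr4:135120652-135177990 on the plus strand of mm10) had 90.8, 84.0, 86.4 and 93.9 TPM in replicates 1 to 4. Runx1 (ENSMUSG00000022952.16, chr16:92601466-92826149, minus strand), the family member of early thymocytes and blood stem cells, had 35.6, 34.0, 34.7 and 35.7 TPM. The 2 ranges did not overlap, and in TPM Runx1 had the smallest spread of the 10 relative to its level (2.28% of the mean). In log2 CPM the SD of Satb1 and of Tox was smaller than that of Runx1. Runx2 (ENSMUSG00000039153.16, chr17:44495987-44814797, minus strand), known foremost from bone, had 0.296, 0.245, 0.237 and 0.139 TPM on 19, 38, 14 and 22 counts. Its exact 95% Poisson intervals were 0.178 to 0.462 TPM in replicate 1 and 0.0871 to 0.210 TPM in replicate 4. The intervals of its highest and lowest libraries thus overlapped in part. Such an overlap does not show that the difference lies within counting error, and the 2 libraries were not compared directly.

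Runx2 was highest in replicate 1 and lowest in replicate 4, and the B cell list moved the same way. The summed level of its 12 genes was 130.5, 82.6, 83.1 and 32.9 TPM in replicates 1 to 4, led by Igkc, Ighd and Cd79b. Of the 12, 7 were at 1 TPM in all libraries, beside 45.7% of all protein-coding genes, and none was without a count. The part of the B cell transcripts in the Runx2 level was not tested.

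As shares of the summed Runx TPM, which was 124.0 ± 5.17, Runx3 made up 71.6% ± 0.595, Runx1 28.2% ± 0.556 and Runx2 0.186% ± 0.0549. With the longest transcript as length, added after the values were seen, Runx3 made up 61.7% ± 0.682 and Runx1 38.1% ± 0.647, and without length 51.6% ± 0.724 and 48.1% ± 0.676. The log2 difference of Runx1 from Runx3 was -1.35, -1.30, -1.31 and -1.39, with a mean of -1.34 ± 0.04, so Runx3 was 2.53-fold the higher on this scale. It shrank to -0.69 ± 0.04 with the longest transcript as length and to -0.10 ± 0.04 without length, still with Runx1 below Runx3 in 4 of 4 libraries. That of Runx2 from Runx3 was -8.10 ± 0.35 with 0.1 TPM added and -6.19 with 1 TPM added. Either difference had 1 sign in 4 of 4 libraries. The sign-flip test gave an exact two-sided p of 0.13 (2 of 16 sign patterns), raw and adjusted over the 8 ratios tested. No smaller p is possible with 4 libraries, so 0.05 is out of reach for any of the 8.

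Cbfb (ENSMUSG00000031885.14, chr8:105170674-105217989, plus strand), which encodes the shared subunit that does not bind DNA but stabilises every Runx protein on it, had 133, 141, 147 and 145 TPM. The summed Runx level was 127, 118, 121 and 129.7 TPM in the same libraries. Cbfb stood above the sum of its partners in each library, by a log2 difference of 0.19 ± 0.09 (1.14-fold, exact two-sided p 0.13, raw and adjusted). The sign turned to -0.12 with the longest transcript as length and to -0.80 without length, since Runx1 has the longer joined exons. The level of Cbfb relative to the summed Runx transcripts is therefore not fixed by these data.

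Each Runx gene is read from a distal and a proximal promoter in vertebrates, and the proteins bind the letters TGTGGT, or ACCACA on the other strand. RefSeq windows on GRCm38.p6, from 250 bases before to 50 bases after a start site, were at hand for 16 starts of 9 factors. The motif, searched on both strands, was in 4 of these 16 windows and in 5506 of all 32851 windows (16.8%). All 3 distal starts of the Runx genes held it, and neither of the 2 proximal starts in the table did. The stretches of 30 bases around the motifs are shown because the Runx stretches resemble each other. They are written on the strand of the gene with the motif in capitals, and the last is the second start of Zbtb7b.
Runx1, chr16:92826025-92826054, minus strand: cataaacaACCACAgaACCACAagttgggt
Runx2, chr17:44814583-44814612, minus strand: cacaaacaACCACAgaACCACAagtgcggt
Runx3, chr4:135120503-135120532, plus strand: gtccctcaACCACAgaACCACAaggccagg
Zbtb7b, chr3:89387743-89387772, minus strand: ctggcgaggaacTGTGGTatgtgagtgggt

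The 3 Runx stretches shared a run of 18 letters, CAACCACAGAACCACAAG, which holds the motif in both copies. In Runx1 and Runx2 the pair lay just after the start site, and in Runx3 before it. Searched on both strands of all 32851 windows, after the stretches had been seen, this run was found in 4 windows (0.0122%), those of the 3 Runx genes and that of Gm16225, a non-coding gene read away from Runx3 whose window overlaps the Runx3 one. Zbtb7b held a single copy. A match of letters is a description, not a bound site.

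The 2 starts of Runx3, the highest of the 3, lie 31900 bases apart and differ in composition. The 250 bases before each are printed for that contrast, 5′ to 3′ on the plus strand of GRCm38.p6 from RefSeq, with RUNX motifs in capitals.
Runx3 distal, chr4:135120395-135120644: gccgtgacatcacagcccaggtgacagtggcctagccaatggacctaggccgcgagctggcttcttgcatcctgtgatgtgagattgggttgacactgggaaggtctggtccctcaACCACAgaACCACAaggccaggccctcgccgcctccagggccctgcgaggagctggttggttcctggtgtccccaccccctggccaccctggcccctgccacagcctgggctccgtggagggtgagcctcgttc
Runx3 proximal, chr4:135152295-135152544: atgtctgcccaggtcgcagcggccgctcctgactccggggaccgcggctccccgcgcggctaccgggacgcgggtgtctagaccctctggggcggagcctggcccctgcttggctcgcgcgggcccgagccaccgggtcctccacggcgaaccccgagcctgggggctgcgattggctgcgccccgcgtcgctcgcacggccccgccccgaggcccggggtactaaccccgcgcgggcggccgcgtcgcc

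Over the whole window the distal Runx3 start had 63.7% G and C and a CpG ratio of 0.264, observed over expected from its C and G content, and the proximal start 77.3% and 1.01. Runx1 showed the same contrast over 128745 bases, with 45.0% and 0.137 at the distal and 69.0% and 1.01 at the proximal start. The medians over all windows were 52.7% and 0.384. The distal starts of all 3 Runx genes thus lay below the median CpG ratio and the proximal ones above it. Counts per gene do not tell which start was used.

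Motifs of other factors were in few of the windows. The GATA motif AGATAA was in 0 of 16 windows, against 11.2% of all windows, and the MYB motif AACNGTT in 1, that of the distal Runx1 start, against 4.45%. The ETS motif CCGGAA was in 2 of 16 windows (14.9% of all), and the TCF motif CTTTGA in 2 (16.0% of all). All were searched on both strands, and nothing is drawn from them about the factors that bind these letters.

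Transcripts of Zbtb7b and of its opponent Runx3 were present in each library, which in bulk RNA does not show that the same cells held both. Zbtb7b (ENSMUSG00000028042.15, chr3:89377644-89394776, minus strand), the gene of ThPOK, had 259, 221, 249.6 and 265 TPM in replicates 1 to 4, with replicate 2 the lowest. Against Runx3 in the same library it stood higher by 1.51, 1.39, 1.53 and 1.496 on the log2 scale. The mean was 1.48 ± 0.06 (2.79-fold, 4 of 4 libraries, exact two-sided p 0.13, raw and adjusted). The CD4-fate factor thus stood above the CD8-fate factor in every library, at percentiles 97.3 and 90.6 of protein-coding genes. This sign held also without length and with the longest transcript as length.

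The coreceptor genes, which these factors control, differed widely in level. Whether their levels follow that of Zbtb7b was not tested. Cd4 was at 1067 ± 31.4 TPM and Cd8a at 0.794 ± 0.288 TPM, between 0.476 and 1.11 TPM. Cd8b1, the gene of the beta chain of CD8, was at 40.0 ± 2.55 TPM, between 36.2 and 41.6 TPM, far above its partner chain. Of its sampled 50-base words, 5.56% also occur in transcripts of other genes.

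Genes of the CD8 programme were present unevenly beside Runx3. Of 15 genes, 10 (66.7%) reached 1 TPM in all libraries, beside 45.7% of all protein-coding genes. At 5 TPM there were 6 of 15, beside 8668 of 21764 protein-coding genes, a similar share. The median of the 15 was 4.47 ± 0.783 TPM. The protease gene Ctsw (213 ± 19.2 TPM), the perforin gene Prf1 (75.3 ± 2.76 TPM) and Cd8b1 were highest. The values of Eomes (4.00 ± 0.789 TPM), Tbx21 (0.817 ± 0.323 TPM) and Gzmb (0.485 ± 0.180 TPM), named after their values were seen, were far lower. The natural killer and innate lymphoid list, which shares killer genes with the CD8 programme, had 2 of 8 genes at 1 TPM and summed to between 7.21 and 9.56 TPM, led by Fcer1g, Tyrobp and Ncr1. The part of such cells in the levels of Runx3 and Prf1 was not tested.

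Gata3, Tox and Myb act ahead of ThPOK. Gata3 (ENSMUSG00000015619.10, chr2:9857078-9890034, minus strand), needed for CD4 commitment and later the factor of T helper 2 cells, had 57.4, 49.1, 53.7 and 53.9 TPM, lowest in replicate 2 like Zbtb7b. Zbtb7b exceeded it 4.63-fold (log2 2.21 ± 0.06, with 2.17, 2.17, 2.21 and 2.29 in the 4 libraries). Runx1, Runx3 and Bcl11b were lowest in replicate 2 as well. The ratio of Zbtb7b to Gata3 moved little between libraries. Gata3 stood above Runx1 by 0.61 ± 0.07 (1.53-fold), but the sign turned to -0.09 with the longest transcript as length and to -0.96 without length. Both ratios had 1 sign in 4 of 4 libraries and an exact two-sided p of 0.13, raw and adjusted.

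For the T helper 2 programme that Gata3 drives, the share of genes detected was near that of all protein-coding genes. Of its 13 genes 5 (38.5%) reached 1 TPM in all libraries, beside 45.7% of all protein-coding genes, and the median of the 13 was 0.0109 ± 0.0218 TPM, beside 0.387 TPM. The highest were Epas1 (25.9 ± 1.22 TPM), Ccr8 (7.18 ± 2.61 TPM) and Nfil3 (2.72 ± 0.650 TPM). The cytokine genes Il4, Il5 and Il13 had no count in any library, nor had Ptgdr2, Pparg and Areg. For Il4, 3 counts in the library with the highest floor would have given 0.366 TPM, for Il5 0.292 TPM and for Il13 0.373 TPM.

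Tox (ENSMUSG00000041272.11, chr4:6686353-6991557, minus strand), an HMG-box factor needed for CD4 cells to develop and later raised in chronically stimulated T cells, had 28.5, 29.95, 27.0 and 26.8 TPM. Myb (ENSMUSG00000019982.15, chr10:21124935-21160984, minus strand), a factor of dividing progenitors, of thymocytes and of effector regulatory T cells, had 12.02, 12.97, 12.98 and 10.53 TPM. Both were higher in replicate 2 than in replicate 4, the reverse of Zbtb7b. The log2 difference of Tox over Myb was 1.24, 1.20, 1.05 and 1.34, with a mean of 1.21 ± 0.12 (2.31-fold, 4 of 4 libraries, exact two-sided p 0.13, raw and adjusted). With the longest transcript as length Tox was at 42.9 TPM and Myb at 23.3 TPM.

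Markers of immature thymocytes, the cells in which Tox and Myb act on lineage choice, were uneven. Of 12 genes 4 (33.3%) reached 1 TPM in all libraries, beside 45.7% of all protein-coding genes, and the median of the 12, 0.401 ± 0.135 TPM, was close to the 0.387 TPM of all. The highest were Cd1d1 (60.4 ± 4.82 TPM), Dntt (26.6 ± 3.16 TPM) and Cd24a (1.86 ± 0.397 TPM). Rag2 had no count, where 3 counts would have given up to 0.131 TPM, and Rag1 and Ptcra had 1 count each in all libraries together. Dntt, the polymerase that adds bases at receptor joints, stood near the level of Tox.

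Satb1 and Bcl11b, the chromatin organisers, were among the highest. Satb1 (ENSMUSG00000023927.15, chr17:51736187-51833290, minus strand), which folds thymocyte chromatin around lineage genes and is held down by Foxp3 in regulatory T cells, had 177, 190.1, 180.3 and 171 TPM on 22896 to 63382 counts. Bcl11b (ENSMUSG00000048251.15, chr12:107910403-108003602, minus strand), the zinc finger factor of T cell commitment, had 242, 219, 261 and 236 TPM. Satb1 was highest and Bcl11b lowest in replicate 2, and the groups of 4 values did not overlap. The log2 difference of Satb1 from Bcl11b was -0.45, -0.21, -0.54 and -0.47, with a mean of -0.41 ± 0.14 (4 of 4 libraries, exact two-sided p 0.13, raw and adjusted). With the longest transcript as length it turned to 1.19, and without length to 0.82, because Satb1 has 19027 joined exon bases and 6243 in its longest transcript. Which of them is the more abundant was therefore not settled by gene counts.

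**Figure D3:**
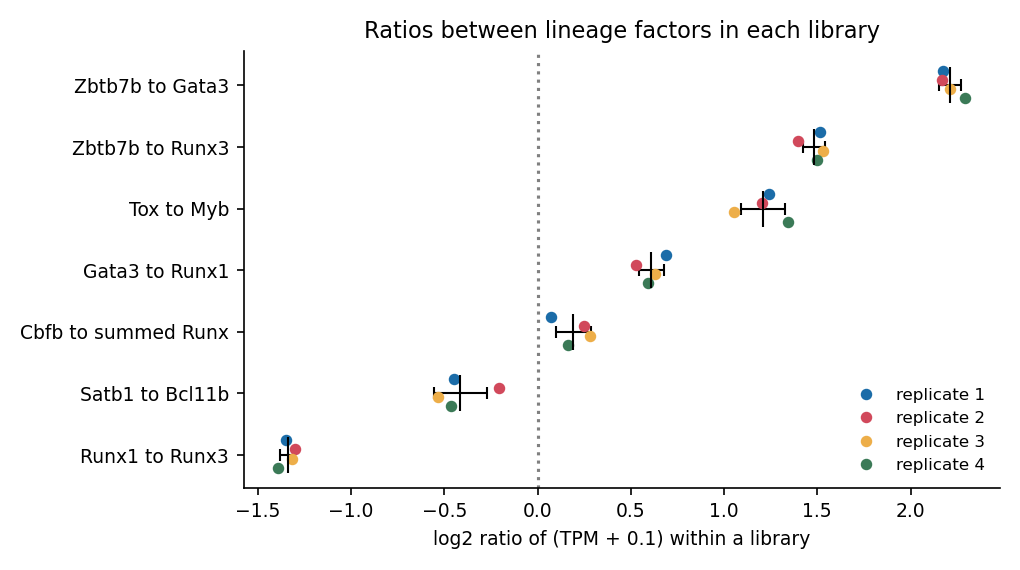
Log2 ratio of levels (TPM plus 0.1) between pairs of factors within each library, with a vertical mark at the mean and a bar of 1 SD over the 4 libraries. Runx1 to Runx3 and Satb1 to Bcl11b lie below 0 in all 4 libraries and the other 5 pairs above it, and Runx2 to Runx3, at -8.10, lies outside the axis and was left out.

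Near relatives of the factors were detected in part. Of 14 paralogues 4 (28.6%) reached 1 TPM in all libraries, beside 45.7% of all protein-coding genes. These 4 were Zbtb7a (61.4 ± 3.50 TPM), Tox4 (60.1 ± 3.22 TPM), Gata1 (8.07 ± 0.451 TPM) and Mybl2 (2.05 ± 0.576 TPM). Zbtb7a, the relative of Zbtb7b known as LRF, supports CD4 cells beside ThPOK, and Gata1 is the factor of red cell precursors. Gata4 and Gata5 had no count in any library, with floors of 0.115 and 0.137 TPM at 3 counts. Of the sampled 50-base words of Mybl2, 32.4% also occur in other genes, as do 20.7% of those of Tox4, so their counts may be short. The Gata1 words had no such copy, and the red cell, stroma and platelet list had 1 of 9 genes at 1 TPM, the endothelial and T cell gene Pecam1 (155 ± 14.7 TPM), with Hbb-bs (1.37 ± 1.17 TPM) and Cdh5 (0.399 ± 0.280 TPM) next and Col3a1, Pf4 and Ppbp without a count.

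Proteins through which Runx factors act were well represented. Of 14 co-repressors and partners 12 (85.7%) reached 1 TPM in all libraries, beside 45.7% of all protein-coding genes. The median of the 14 was 65.0 ± 1.89 TPM. The highest was Aes (701 ± 48.7 TPM), the short Groucho relative that lacks the repressor part, followed by Ncor1 (169 ± 4.95 TPM) and the Groucho gene Tle3 (102 ± 5.99 TPM). The other Groucho genes were Tle4 (83.6 ± 4.90 TPM), Tle1 (8.41 ± 0.600 TPM) and Tle2 (1.75 ± 0.419 TPM). Runx proteins recruit Groucho proteins to silence Cd4, and of these genes Tle3 and Tle4 carried most of the transcripts.

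The remaining partners lay in between. Sin3a was at 100.3 ± 5.02 TPM, the acetyltransferase genes Ep300 and Crebbp at 76.7 ± 1.62 and 66.4 ± 2.28 TPM, and the deacetylase gene Hdac3 at 63.7 ± 2.07 TPM. The kinase gene Hipk2 was at 18.6 ± 1.98 TPM and Cbfa2t2, of the family fused to RUNX1 in leukaemia, at 14.5 ± 0.483 TPM. Its relatives were near absent, with Cbfa2t3 at 0.176 ± 0.131 TPM, named after its values were seen, and Runx1t1 without a count.

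All 20 further regulators of the CD4 and CD8 fates reached 5 TPM in every library, beside 8668 of 21764 protein-coding genes. The median of the 20 was 123 ± 5.23 TPM. Tcf7 (2932 ± 117 TPM) and Lef1 (295 ± 7.995 TPM), the partners in Wnt-type signalling that raise ThPOK, were present with Ets1 (933 ± 83.7 TPM), a Runx partner on DNA, and Ikzf1 (645 ± 32.4 TPM). Of the chromatin remodelling genes, Chd4 (352 ± 15.1 TPM) and Mta2 (317 ± 10.05 TPM) of the NuRD complex stood above Smarca4 (142 ± 8.46 TPM), and the deacetylase gene Hdac7 was at 235 ± 19.4 TPM. Among the E proteins, Tcf3 was at 150.1 ± 13.04 TPM and Tcf12 at 33.1 ± 1.18 TPM.

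Among the other regulators, Kdm6b (128 ± 5.73 TPM), a histone demethylase, and Zfp335 (118 ± 5.64 TPM), a factor of late thymocyte maturation, were followed by Socs1 (72.1 ± 6.76 TPM), the brake on cytokine signals that favour the CD8 fate. Patz1 (63.7 ± 2.94 TPM), which acts at the Zbtb7b and Cd8 loci, Ikzf3 (60.3 ± 2.53 TPM) and Themis (48.6 ± 4.29 TPM), a signalling protein of positive selection, came next. The nuclear receptor gene Thra (27.8 ± 1.20 TPM), Bcl6 (15.2 ± 0.933 TPM), Gfi1 (14.8 ± 1.92 TPM) and Ezh2 (13.6 ± 1.09 TPM) were lowest. These 20 and the 12 partners are lists chosen with results of these data known, so their counts describe them.

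Genes whose levels over the 4 libraries were closest to each factor were sought among 21754 protein-coding genes by the root-mean-square difference of log2(TPM plus 0.1). The closest match was Arl5c to Satb1 (0.00604), with 178, 190.3, 181 and 170 TPM. Runx3 was matched by Prdx5 and Pkp3, Runx1 by Hmces and Marveld1, Cbfb by Ran and Slc35c1, and Zbtb7b by Eno1 and Dtx1. Gata3 was matched by Atp13a2 and Myg1, Tox by Mphosph10 and Klhl42, Myb by Nkrf and Myef2, Bcl11b by Impdh1 and Mif, and Runx2 by Serinc4 and Aspm, while Hnrnpdl was the second match of Satb1. With 4 libraries and so many candidates, such matches show a like level and nothing more.

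Variation between libraries was tested for each gene that passed the filter on counts. In an edgeR fit over 12554 genes, 142 genes (1.13%) varied beyond the trend for genes of like abundance at an adjusted p under 0.05, and 0 of the 10 factors did, a share near that of all genes. At an unadjusted p under 0.05 there were 657 genes (5.23%) and again 0 factors. With the DESeq2 dispersion trend 119 genes and 0 factors were called, and 1 factor, Zbtb7b, had an unadjusted p of 0.0296 (adjusted 0.843). In the edgeR fit the lowest unadjusted p of a factor was 0.254 for Zbtb7b and the highest 0.949 for Satb1, and the adjusted p was 1.00 for each. A missed threshold does not show that the levels were equal. The number of genes called fell to 64, 85, 84 and 60 without replicates 1, 2, 3 and 4, with 0 factors each time, and Runx2 was not among the genes tested without replicate 2.

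By size, the median SD of log2 CPM was 0.10 over the factors and 0.11 over all genes tested. Satb1 (0.04), Tox (0.05) and Runx1 (0.05) had an SD at percentiles 8.15, 12.5 and 14.4 of all genes tested. Zbtb7b (0.14), Myb (0.13) and Bcl11b (0.12) lay at percentiles 62.8, 57.7 and 55.6, and Runx2 (0.41), on the fewest counts, at 92.3. Gata3 (0.11), Runx3 (0.09) and Cbfb (0.08) lay at 49.5, 40.6 and 31.4.

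**Figure D4:**
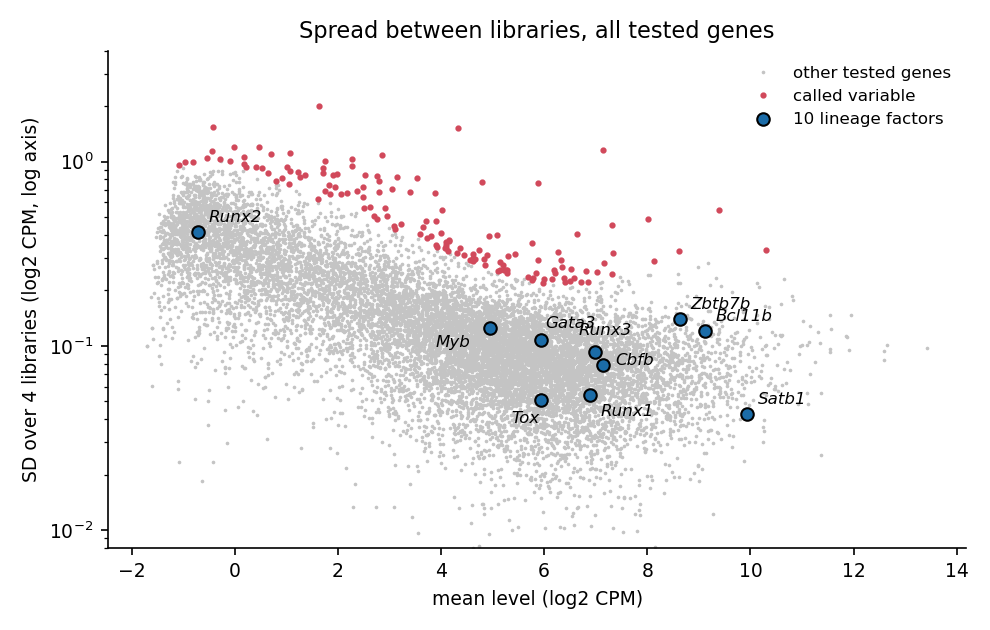
SD over the 4 libraries (log axis) against the mean level, both in log2 CPM, for all 12554 genes tested, with the 142 genes called variable in red and the 10 factors in blue. All 10 factors lie within the grey cloud, with Satb1 at its lower edge for its abundance and Runx2 among genes of low counts.

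In replicate 2 the factors deviated from their means partly in the order of the base composition of their transcripts. Zbtb7b (59.9% G and C in its longest transcript, percentile 96.2) was at -0.20 from its own mean in log2 CPM there. Bcl11b was at -0.16, Gata3 at -0.15 and Runx3 (55.9% G and C) at -0.11 in that library. Satb1 (44.8%), Tox (45.1%) and Myb (47.0%) were at 0.05, 0.06 and 0.07. The order was not complete. Runx1 (46.4%, at -0.07), Cbfb (42.5%, at -0.04) and Runx2 (50.3%, at 0.11, on the fewest counts) lay outside it.

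In replicate 2 the relation had the same sign over all genes, though it was weaker. Across the 12531 genes tested with a known transcript, the correlation of GC content with the deviation in a library was 0.134, -0.363, 0.0434 and 0.161 in replicates 1 to 4. Across the 9 factors other than Runx2 it was 0.633, -0.718, -0.147 and 0.546, with the sign opposite to that of all genes in replicate 3. These points share the library and its depth, genes are not independent replicates, and the correlations describe these libraries only. Each deviation is taken from the gene's mean over the 4 libraries, so the 4 correlations are not independent of each other. The part of base composition in the replicate 2 values of Zbtb7b, Bcl11b and Gata3 was not tested.

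**Figure D5:**
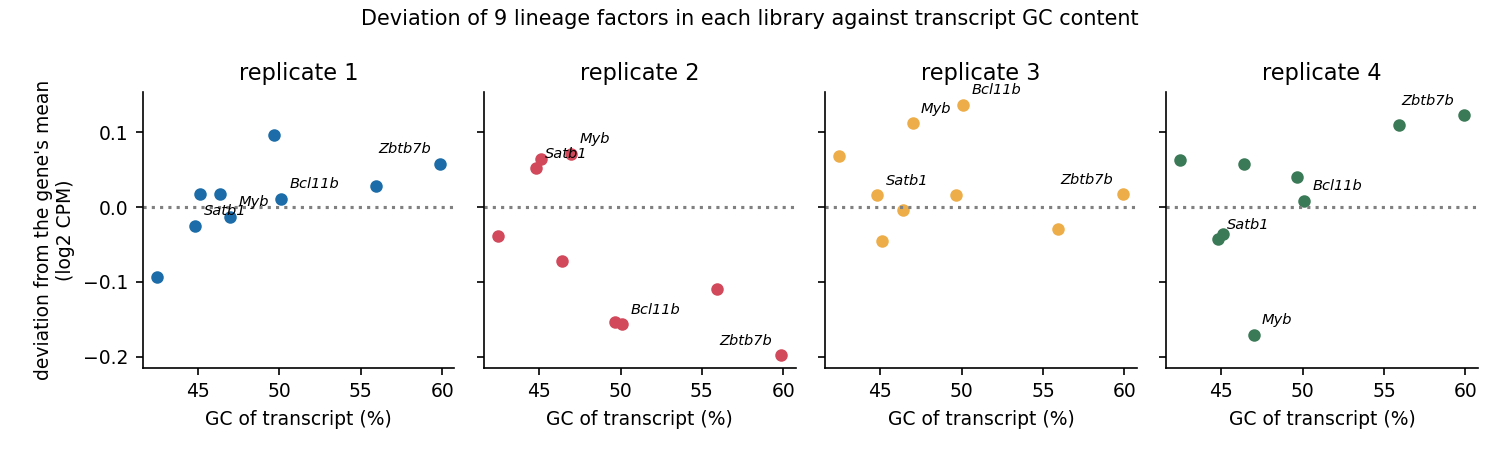
Deviation of each of 9 factors from its own mean (log2 CPM) against the GC content of its longest transcript, in 1 panel per replicate, with Runx2 left out. In replicate 2 the points descend, with Zbtb7b lowest at -0.20, and in replicate 4 Zbtb7b is the highest and Myb the lowest.

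Genes that overlap the factors were looked up in the annotation. Counting was by strand, and on the same strand other annotated exons covered 1.94% of the exon bases of Gata3 and 0.820% of those of Satb1 and none of the other 8. On the opposite strand, Gm15417 overlapped Zbtb7b and was at 5.10 ± 0.742 TPM, Gm6934 lay at Satb1 with 5.17 ± 0.613 TPM, and Supt3, the large gene facing Runx2, was at 7.67 ± 0.978 TPM, above Runx2 in all 4 libraries. At Gata3, Gm13256 was at 0.913 ± 0.549 TPM and 4930412O13Rik at 0.195 ± 0.241 TPM. These partners were far lower than the factor they overlap, except Supt3.

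Inside Satb1, on its own strand, further annotated units were counted apart: E430014B02Rik (6.03 ± 0.689 TPM), C230085N15Rik (3.08 ± 0.775 TPM), Gm36931 (2.19 ± 0.317 TPM), 5830444F18Rik (0.314 ± 0.200 TPM) and Gm37248 (0.497 ± 0.0958 TPM). A small nuclear RNA gene inside Cbfb, Gm22063, had 9, 13, 0 and 0 counts. Of sampled 50-base words, at most 6.09% occurred in another gene for any of the 10 factors, the most for Myb and none for Cbfb. Fragments left out of the counts were not measured.

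Markers of other cells were present at low to moderate levels. The macrophage and dendritic list had 3 of 10 genes at 1 TPM in all libraries, beside 45.7% of all protein-coding genes. It summed to between 15.2 and 18.4 TPM, led by Cd68, Lyz2 and Itgam, and its median was 0.322 ± 0.132 TPM. The list of invariant and gamma-delta T cells, which can carry high Zbtb7b or Gata3, had 1 of 8, Trdc at 8.37 ± 0.874 TPM (2 of 8 without replicate 4), with Blk and Tcrg-C4 next, and summed to between 10.1 and 14.95 TPM. The part of these cells in the levels of the factors was not tested.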

How the data were processed

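For 4 libraries of 1 group the authors deposited raw fragment counts. Per the file headers, featureCounts 1.4.6-p4 counted exons against GENCODE M13 on mm10, with strand setting 2 (reverse-stranded). Fragments with several alignments or over several genes were left out. Here TPM was calculated by dividing counts by the deposited exon length. Symbols came from GENCODE M21 for 50376 of 50600 genes (99.6%).

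Within-library log2 ratios used TPM plus 0.1 and an exact two-sided sign-flip test over libraries, adjusted by the Benjamini-Hochberg method over 8 ratios. Variability between libraries was tested with filterByExpr, TMM and an intercept-only glmQLFit of edgeR 4.0.16, in R 4.3.3. The residual deviance at the trended dispersion was set against chi-square, and p was adjusted over all genes tested. This step was tested on simulated data. DESeq2 1.42.0 gave alternatives. Python 3.11.15, numpy 2.4.6, pandas 2.3.3, scipy 1.17.1 and matplotlib 3.10.9 gave the other values.

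Named genes are the 10 factors and, for each, the 2 protein-coding genes with the closest levels. All genes at 1 TPM in every library were named from the lists of paralogues, RUNX partners, fate regulators and coreceptors. Of each other list the 3 highest genes and the defining genes with no count were named, as were genes overlapping a factor with at least 10 counts in some library. Genes outside this rule were named with their values known. The factors, lists and tests were chosen with earlier results of these data known. Intervals and floors cover counting error only.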

Additional observations from a re-analysis of the deposited data

How the results depend on the processing

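No paired analysis was possible because the libraries form 1 group. Of the 8 ratios between factors, 5 kept their sign under every alternative. Without any length, as CPM, Gata3 to Runx1 turned to -0.96, Satb1 to Bcl11b to 0.82 and Cbfb to the summed Runx level to -0.80. With the longest transcript as length they turned to -0.0933, 1.19 and -0.12, and under each of these settings 5 of 10 factors kept their rank. Genes variable between libraries were 88 with no filter beyond 1 count and 57 among protein-coding genes with a mean of at least 5 CPM, where fewer genes were tested, and 60 to 85 with 1 replicate left out, against 142. The factors among them were 0 of 10 tested with no filter and without replicates 1, 3 and 4, and 0 of 9 at 5 CPM and without replicate 2, where Runx2 was not tested. Of the smaller results, 24 values moved and 127 did not. Among the 10 factors depth limited Runx2 most, with 14 to 38 counts per library, and other genes named, such as Gzmb with 5 to 9, rest on as few or fewer.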
